A study of Mus musculus with 6 samples.

Results

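The let-7 family with miR-98 was described here in type H and type L endothelial cells (ECs) of mouse bone marrow. Its members were the 9 guide strands mmu-let-7a-5p, mmu-let-7b-5p, mmu-let-7c-5p, mmu-let-7d-5p, mmu-let-7e-5p, mmu-let-7f-5p, mmu-let-7g-5p, mmu-let-7i-5p and mmu-miR-98-5p, chosen by name out of 1881 mouse miRNAs on the array. A guide strand is the strand of a miRNA precursor that is mainly kept to repress mRNAs. Type H ECs stain strongly for CD31 and endomucin (CD31hiEmcnhi), form the capillaries near the growth plate and are associated with osteoprogenitors, and type L ECs stain weakly for both (CD31loEmcnlo). Each cell type was measured on 3 one-colour Agilent miRNA arrays. Per the labels all 6 samples came from the bone marrow of male wild type C57BL/6 mice aged 1 month, whereas the methods of the study call the mice female. The labels add that the sorted cells were kept in endothelial growth medium on fibronectin before RNA was extracted, a step the text on the arrays leaves out. No source used here says how many mice went into a sample. The arrays of a cell type are labelled as biological replicates, and p-values measure only the spread between these arrays.

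The let-7 family is among the most conserved miRNA families of animals. A miRNA guides a repressor complex to mRNAs that pair with its seed, bases 2 to 8 from its 5′ end, so members with the same seed can act on the same mRNAs. Let-7 guide strands increase as cells differentiate, repress growth genes such as Hmga2, Myc and Ras genes, and are held down in stem cells by LIN28, which binds many let-7 precursors. They are abundant in cultured endothelial cells, where the type I TGF-β receptor is a known target.

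All 9 mature sequences were found in the RefSeq table for GRCm38.p6. They are shown because members differ by few bases outside a common seed, which bears on what an array probe can tell apart. Capitals mark the seed.
mmu-let-7a-5p: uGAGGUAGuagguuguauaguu
mmu-let-7b-5p: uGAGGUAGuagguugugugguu
mmu-let-7c-5p: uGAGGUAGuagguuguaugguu
mmu-let-7d-5p: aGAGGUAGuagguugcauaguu
mmu-let-7e-5p: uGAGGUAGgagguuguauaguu
mmu-let-7f-5p: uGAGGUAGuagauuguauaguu
mmu-let-7g-5p: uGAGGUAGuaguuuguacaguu
mmu-let-7i-5p: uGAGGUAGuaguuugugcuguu
mmu-miR-98-5p: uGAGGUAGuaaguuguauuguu

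Each sequence is 22 bases long and holds the seed GAGGUAG. Positions are counted from 1 at the 5′ end, with the base of let-7a-5p first (the prefix mmu- is left out from here on). Let-7c-5p differs from let-7a-5p by A19G, let-7e-5p by U9G and let-7f-5p by G12A. Let-7b-5p carries A17G and A19G, let-7d-5p carries U1A and U16C, and let-7g-5p carries G12U and U18C. Let-7i-5p is the farthest from let-7a-5p, with G12U, A17G, U18C and A19U, and miR-98-5p carries G11A and A19U. Among the 36 pairs of members, 4 pairs differ at 1 base, 10 pairs at 2 bases, and the most distant pair, let-7d-5p and let-7i-5p, at 6. Each of the 9 members has another member within 2 bases.

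Several members come from shared primary transcripts (coordinates of the mature strand, GRCm38.p6). On the minus strand of chromosome 13, let-7a-5p (Mirlet7a-1, chr13:48538239-48538260), a copy of let-7f-5p (Mirlet7f-1, chr13:48537889-48537910) and let-7d-5p (chr13:48536078-48536099) lie within 2183 bases. On the plus strand of chromosome 15, a copy of let-7c-5p (Mirlet7c-2, chr15:85706616-85706637) and let-7b-5p (chr15:85707325-85707346) lie within 731 bases inside the long non-coding gene Lncppara. The second copy of let-7f-5p (Mirlet7f-2, chrX:151912353-151912374) and miR-98-5p (chrX:151913229-151913250) lie within 898 bases inside Huwe1, a ubiquitin ligase gene. Let-7g-5p (chr9:106178846-106178867) lies inside Wdr82, let-7e-5p (chr17:17830366-17830387) inside Spaca6, and the other copy of let-7c-5p (Mirlet7c-1, chr16:77599672-77599693) and let-7i-5p (chr10:122985698-122985719, minus strand) inside no other gene of the table. A guide strand made from more than 1 locus is read as a single sum by the array. The array annotation also gives 2 loci for both probes of let-7a-5p, of which only Mirlet7a-1 was found in the RefSeq table.

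The array reads each member with 2 probes of 15 spots each. Each probe is complementary to the miRNA from its 3′ end up to a base between 1 and 5, and the longer probe of miR-98-5p spans all 22 bases. Probes of the members on which the results turn are given 5′ to 3′ as the array files list them, with capitals at bases that lie opposite a difference from let-7a-5p.
let-7a-5p, longer probe: aactatacaacctactacct
let-7d-5p, longer probe: aactatGcaacctactacc
let-7b-5p, longer probe: aacCaCacaacctactacc
let-7g-5p, longer probe: aactGtacaaActactacctc
let-7i-5p, longer probe: aacAGCacaaActactacctc

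The probe of let-7d-5p leaves out the base at the 5′ end of the miRNA, so a single base separates it from let-7a-5p. Over all 18 probes the fewest mismatches to another member were 1 or 2. How much signal a probe took from another member was not tested.

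All 9 members were detected on all 6 arrays, and none of their 270 spots per array was saturated. The type H arrays detected 263 to 281 miRNAs in all, and the type L arrays 295 to 309. Each cell type had a slide and a scan of its own, which leaves cell type and slide confounded: they cannot be told apart. The 10 detected control features of the array were all brighter with type H arrays, by 0.21 to 1.47 (log2). For the labelled cell type, both arms of the endothelial miR-126a were on the array and were detected on 0 arrays. The 6 haematopoietic markers on the array were detected on 0 arrays too. All 8 stromal markers on the array (miR-140, miR-143, miR-145a, miR-199 and miR-214 strands) were detected, 7 of them on all 6 arrays. Their summed signal was 999.9 to 1270.2 on the type H arrays and 865 to 993 on the type L arrays, 5 were higher and 1 lower in type H ECs (of all miRNAs tested, 44.7% and 42.1%), and their part in the results below was not tested. In bulk samples, fewer cells of a type and less RNA per cell cannot be told apart.

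Before any scaling between arrays, let-7d-5p and let-7b-5p were the members whose type H signals all lay above the type L signals, which was so for 31.8% of all miRNAs tested. The signal of a miRNA is the sum of the totals of its probes, in the scanner's intensity units. Let-7d-5p gave 312, 256 and 240.4 on the type H arrays 1 to 3 and 171, 195 and 202 on the type L arrays 1 to 3. Let-7b-5p gave 1617, 1353 and 1234 in type H ECs and 1018, 1133 and 1164 in type L ECs. The other 7 members overlapped between the cell types. The log2 difference was 0.50 for let-7d-5p and 0.34 for let-7b-5p, against a median of 0.60 for the 10 detected control features. Whether the offset of the control features bears on the members was not tested.

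Let-7a-5p, of which a copy shares the transcript of let-7d-5p, gave 610.3, 491 and 482 in type H ECs and 449.8, 499.6 and 549 in type L ECs. Let-7f-5p gave 344, 269 and 269 in type H ECs and 236, 268 and 293 in type L ECs. The third type L array was above 2 type H arrays for both.

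Let-7c-5p, which shares a transcript with let-7b-5p, gave 1391, 1143 and 1091 in type H ECs and 928, 1044 and 1101 in type L ECs. Let-7e-5p gave 459.9, 381 and 356 in type H ECs and 317, 354 and 367 in type L ECs. For both, a single type L array lay above the lowest type H array.

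Let-7i-5p gave 1406, 1124 and 1088 in type H ECs and 1037, 1124 and 1163 in type L ECs. Let-7g-5p gave 148, 118 and 115 in type H ECs and 118, 130.1 and 137 in type L ECs. For let-7g-5p, 2 of 3 type L arrays were above 2 of 3 type H arrays.

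MiR-98-5p was the dimmest member, at 15.5, 11.5 and 12.2 in type H ECs and 10.68, 12.1 and 13.1 in type L ECs. Its spots were also the least even: the median coefficient of variation between the 15 spots of a probe was 13.7% for miR-98-5p and 4.12% over all members. Type H array 1 was the brightest type H array for each member and type L array 1 the dimmest type L array for each, so a large part of the spread within a cell type was common to the family.

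**Figure D1:**
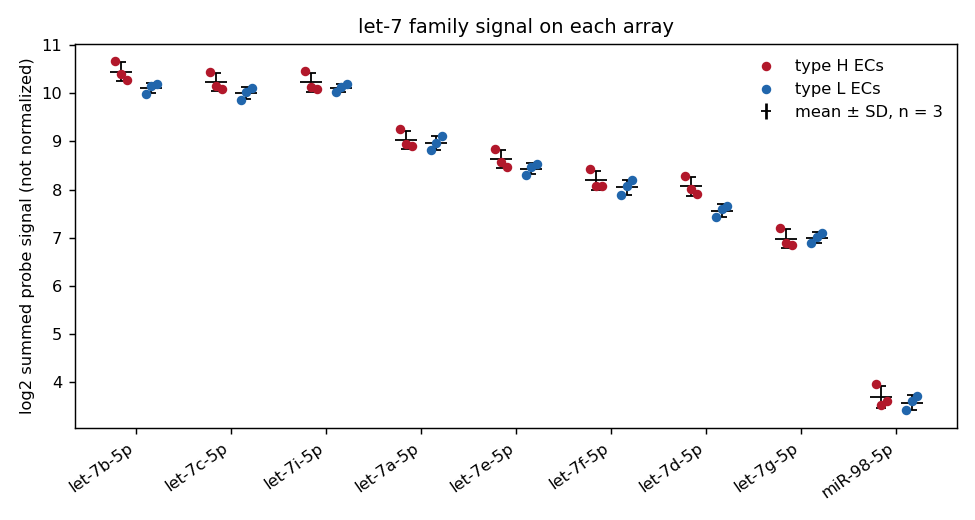
Log2 summed probe signal before normalization (y axis) of each member (x axis, by share of the type H signal) on each of 3 type H and 3 type L arrays (points), with the mean ± SD as black bars. Let-7d-5p and let-7b-5p lie apart between the cell types, at 8.07 against 7.56 and 10.44 against 10.11, and the other members overlap.

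After quantile normalization, which gives every array the same distribution of signals, 6 of 9 members differed between the cell types and 5 of them were higher in type H ECs. These were let-7a-5p, let-7b-5p, let-7d-5p, let-7f-5p and miR-98-5p, and let-7g-5p was lower. The sizes were small, at most 1.42-fold, and the calls were common on these arrays. With limma over 311 miRNAs that every array of type H or every array of type L detected, and a Benjamini-Hochberg adjusted p under 0.05, 44.7% of all miRNAs were called higher and 42.1% lower in type H ECs, against 5 and 1 of the 9 members. The type H values all exceeded the type L values for 6 members, where 45.7% of all miRNAs tested showed this, and all lay below them for 1 member, where 42.1% did.

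Let-7d-5p had the largest difference. Its normalized log2 signal was 8.10 on each of the type H arrays and 7.53, 7.65 and 7.60 on the type L arrays. The log2 difference was 0.50 (SE 0.038, n = 3 arrays per cell type, limma adjusted p = 5.73e-05). The SD of the type H arrays is 0 here because a member with the same rank on several arrays is given a single common value by the method. This held for let-7a-5p, let-7b-5p, let-7c-5p, let-7d-5p, let-7e-5p and let-7f-5p in type H ECs, so the SDs of normalized values understate the spread seen before normalization (for let-7d-5p 0.20 in type H and 0.13 in type L ECs). The limma SEs and p-values of normalized values rest on the same reduced spread. Without normalization the limma adjusted p was 0.62 for let-7a-5p and 0.35 for let-7f-5p.

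For let-7a-5p, of which a copy lies on the transcript of let-7d-5p, the normalized log2 signal was 9.21 on each type H array and 8.83, 8.94 and 8.94 on the type L arrays. Its log2 difference was 0.31 (SE 0.039, limma adjusted p = 0.000546). Let-7f-5p, which the X chromosome also encodes, was at 8.25 on each type H array and at 7.96, 7.96 and 8.12 on the type L arrays, a difference of 0.23 (SE 0.052, limma adjusted p = 0.00661). Neither member overlapped between the cell types.

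Let-7b-5p was at 10.55 on each type H array and at 10.17, 10.23 and 10.23 on the type L arrays, with a log2 difference of 0.34 (SE 0.028, limma adjusted p = 7.72e-05). Its neighbour let-7c-5p was at 10.17 on each type H array and at 9.95, 10.11 and 10.11 on the type L arrays. The difference of 0.12 (SE 0.050, limma adjusted p = 0.0734) did not pass the threshold, although the arrays did not overlap, and without type L array 1 it passed (0.052, limma adjusted p = 0.0315). That pass came with a smaller difference. The arrays left had tied values within each cell type, so they gave no spread to test against.

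MiR-98-5p was at 3.94, 3.73 and 3.94 on the type H arrays and at 3.28, 3.44 and 3.50 on the type L arrays, with a log2 difference of 0.46 (SE 0.085, limma adjusted p = 0.00285). Without normalization the difference of miR-98-5p was 0.12 (limma adjusted p = 0.427). Let-7g-5p went the other way. It was at 6.94, 6.91 and 6.94 on the type H arrays and at 7.01, 7.05 and 7.13 on the type L arrays, with a log2 difference of -0.13 (SE 0.039, limma adjusted p = 0.0204). Without type H array 2 or without type L array 2 it did not pass (limma adjusted p = 0.0629 and 0.0566). Without normalization the difference of let-7g-5p was -0.0205 (limma adjusted p = 0.891).

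Let-7e-5p was at 8.55 on each type H array and at 8.29, 8.55 and 8.55 on the type L arrays. Its difference of 0.086 (SE 0.077, limma adjusted p = 0.333) did not pass, and neither did that of let-7i-5p, at 10.15 ± 0.068 in type H and 10.19 ± 0.032 in type L ECs (SD, n = 3, limma adjusted p = 0.397). Both overlapped between the cell types. The difference of let-7e-5p was 0 without type L array 1 and 0.14 without type L array 3. For the 7 members without overlap, p was 0.1 by exact two-sided permutation, which is the lower limit with 3 arrays in each group.

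The median log2 difference of the 9 members was 0.23, against 0.026 over all 311 miRNAs tested and 0.11 over the 231 miRNAs detected on all 6 arrays. Among these 231, let-7d-5p had rank 63 from the highest difference, miR-98-5p rank 67 and let-7g-5p rank 151. The family mean of log2 signal was 8.44, 8.40 and 8.42 on the type H arrays and 8.14, 8.23 and 8.26 on the type L arrays, a mean difference of 0.21.

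The number of members called depended on how the arrays were scaled. Without normalization, let-7b-5p (0.34, limma adjusted p = 0.0217) and let-7d-5p (0.50, limma adjusted p = 0.000517) were called higher and none lower, where 30.5% and 45.3% of all miRNAs were called higher and lower. After scaling on the 75th percentile over the miRNAs detected on all arrays, let-7b-5p, let-7c-5p and let-7d-5p were called higher and let-7g-5p lower (31.5% and 56.6% of all miRNAs). After centring each array on the median of those miRNAs, all 9 members were called higher (43.4% of all miRNAs, with 41.2% lower), let-7g-5p and let-7i-5p among them. Of all calls, 51.5% were higher in type H ECs under quantile normalization, 40.3% without normalization, 35.8% under the 75th percentile over detected miRNAs and 40.7% under the 75th percentile over all miRNAs.

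The scalings moved all miRNAs together. The median log2 difference of the 231 miRNAs was -0.12 without normalization, -0.22 under the 75th percentile over detected miRNAs and 0.13 under median centring. Relative to that median, the family median was higher by 0.26 under each of these, and by 0.13 under quantile normalization. It lay below that median in the authors' log2 table (-0.14 relative to it) and with the longest probe alone (-0.043). Over 17 settings that kept the 6 arrays (quantile normalization as above and alternatives to its signal, scaling, filter, floor or test), which give 11 distinct values per member, let-7d-5p ranged from 0.40 to 0.75 and was called higher throughout. Let-7b-5p was called higher in each except the authors' log2 table (0.20, limma adjusted p = 0.083). The direction of let-7a-5p, let-7e-5p, let-7g-5p and let-7i-5p changed with the setting.

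**Figure D2:**
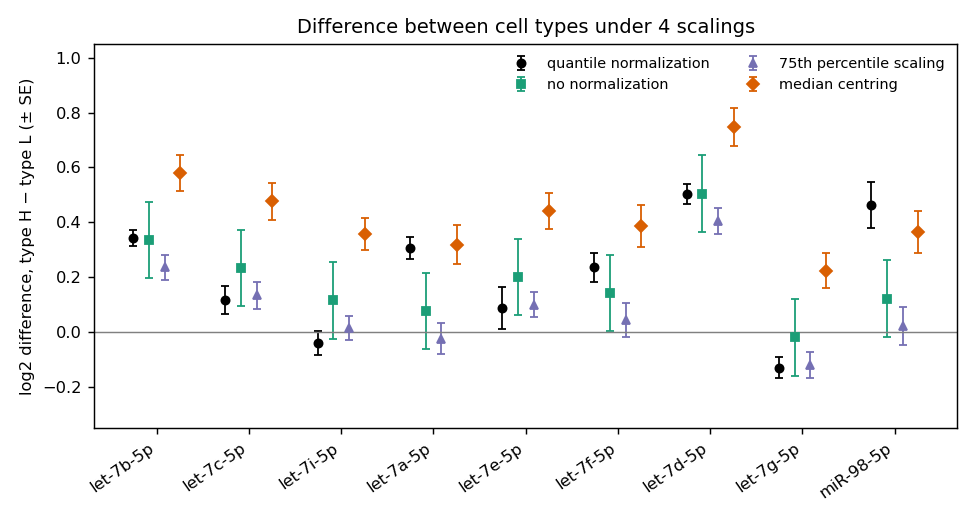
Log2 difference, type H minus type L ECs (y axis, ± limma SE), of each member (x axis) under 4 scalings of the same 6 arrays. Let-7d-5p lies highest under each scaling, from 0.40 to 0.75, and let-7g-5p lies between -0.13 and 0.22.

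Within the family, let-7d-5p was higher and let-7g-5p lower in type H ECs relative to the other members. For this comparison the mean log2 signal of the 9 members was subtracted from every miRNA on each array. Multiplying an array by a factor leaves such differences as they are, although quantile normalization does not, and since they sum to 0 over the members, a rise of some implies a fall of others. With the signals before normalization, let-7d-5p stood at -0.33, -0.30 and -0.34 relative to the family mean on the type H arrays and at -0.65, -0.62 and -0.65 on the type L arrays. The difference was 0.31 (limma adjusted p = 0.000484) and the SD between arrays was 0.024 in type H and 0.014 in type L ECs.

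Let-7g-5p stood at -1.40, -1.41 and -1.41 in type H ECs and at -1.19, -1.20 and -1.21 in type L ECs, a difference of -0.21 (limma adjusted p = 0.00289). Let-7b-5p stood at 2.04, 2.10 and 2.02 in type H ECs and at 1.93, 1.92 and 1.88 in type L ECs, a difference of 0.15 (limma adjusted p = 0.0253). Let-7a-5p stood at 0.64, 0.64 and 0.66 in type H ECs and at 0.75, 0.74 and 0.79 in type L ECs, a difference of -0.11 (limma adjusted p = 0.0458). None of these 4 overlapped between the cell types, and they were the members called, 2 in each direction. Let-7c-5p (0.044, limma adjusted p = 0.352) and let-7i-5p (-0.075, limma adjusted p = 0.156) did not overlap either but were not called. The share of all miRNAs without overlap was not counted on this scale. Of all miRNAs measured this way, 27.3% were called higher and 59.2% lower. The fit on signals before normalization was added after the data had been seen.

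With quantile-normalized values, 5 members were called relative to the family mean. Let-7d-5p (0.29, SE 0.047, limma adjusted p = 0.000612), let-7b-5p (0.13, SE 0.045, limma adjusted p = 0.0267) and miR-98-5p (0.25, SE 0.065, limma adjusted p = 0.00742) were higher, where 33.4% of all miRNAs were. Let-7g-5p (-0.34, SE 0.044, limma adjusted p = 0.000212) and let-7i-5p (-0.25, SE 0.064, limma adjusted p = 0.00742) were lower, where 50.5% of all miRNAs were. Relative to the family mean, 5 of 9 members had the opposite sign before normalization. They were miR-98-5p (0.25 after and -0.069 before normalization), let-7a-5p (0.097 and -0.11), let-7c-5p (-0.093 and 0.044), let-7e-5p (-0.12 and 0.0099) and let-7f-5p (0.026 and -0.047). Over the 17 settings, which give 8 distinct values per member because several leave these differences as they are, let-7d-5p ranged from 0.23 to 0.43 and let-7g-5p from -0.34 to -0.21, and both were called throughout. Let-7b-5p was not called with the deposited totals, in the authors' log2 table, with the replicate number as a block or with the longest probe alone (0.013).

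**Figure D3:**
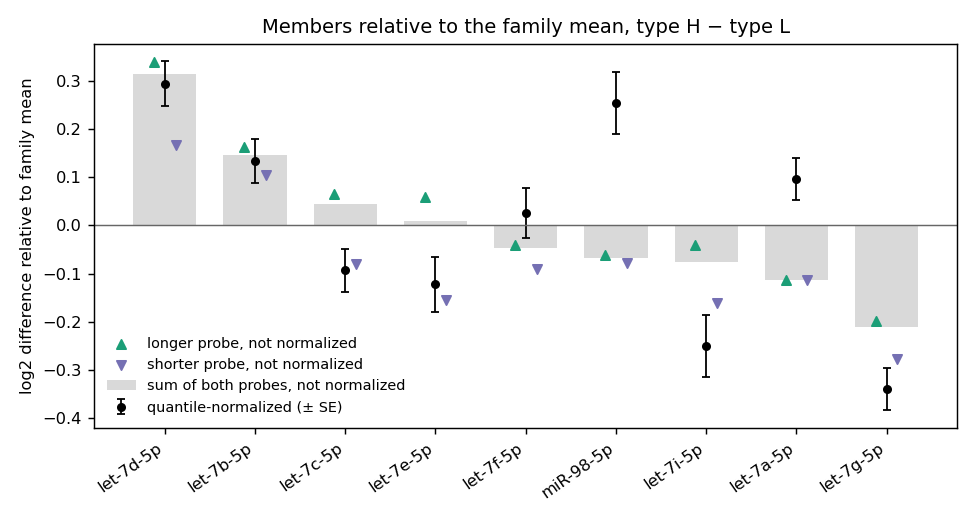
Log2 difference relative to the family mean, type H minus type L ECs (y axis), of each member (x axis) from the summed signal before normalization (grey bars), each of its 2 probes (triangles) and quantile-normalized values (black points, ± limma SE). Let-7d-5p lies above 0 and let-7g-5p below 0 by every measure. For miR-98-5p, let-7a-5p, let-7c-5p, let-7e-5p and let-7f-5p, the summed signal and the quantile-normalized value lie on opposite sides of 0. The shorter probes of let-7c-5p and let-7e-5p lie below 0, as their normalized values do.

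The 2 probes of a member are separate readings of it on the same array. For let-7d-5p the difference relative to the family mean was 0.34 with the longer and 0.17 with the shorter probe, and for let-7g-5p it was -0.20 and -0.28. Let-7b-5p gave 0.16 and 0.11, and let-7a-5p gave -0.11 with both. The type H arrays were apart from the type L arrays for each of these 8 probes. Single probes of other miRNAs were not counted this way. Of all miRNAs tested, with quantile-normalized values, 45.7% lay above and 42.1% below without overlap.

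The direction was the same with both probes for 7 of 9 members. Let-7c-5p gave 0.065 and -0.081 and let-7e-5p 0.059 and -0.15 with the longer and the shorter probe, in both cases without overlap between the cell types. The difference of the longer probe was above that of the shorter for 8 of 9 members, by a median of 0.080 on the log2 scale. Among the 194 other miRNAs with 2 probes this was so for 144 (74.2%), with a median of 0.079.

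Let-7b-5p, let-7c-5p and let-7i-5p held most of the family's signal in both cell types. Brightness also depends on the length and binding of each probe, so the order of signals need not be the order of molecules, and only differences between the cell types are comparisons. As a percent of the summed signal of the 9 members before normalization, let-7b-5p held 25.7, 26.3 and 25.2% on the type H arrays and 23.8, 23.8 and 23.3% on the type L arrays. Let-7i-5p held 22.3, 21.8 and 22.3% in type H ECs and 24.2, 23.6 and 23.3% in type L ECs. Let-7c-5p held 22.2% ± 0.13 in type H and 21.9% ± 0.20 in type L ECs (SD, n = 3).

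Let-7b-5p was thus brightest on all 3 type H arrays, while in type L ECs let-7b-5p and let-7i-5p overlapped, and let-7i-5p was brightest on 1 of the 3. In type H ECs let-7c-5p and let-7i-5p overlapped. Below these, the order was let-7a-5p, let-7e-5p, let-7f-5p, let-7d-5p, let-7g-5p and miR-98-5p on each of the 6 arrays.

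Let-7d-5p held 4.96, 4.98 and 4.92% of the family signal in type H ECs and 3.995, 4.09 and 4.06% in type L ECs, a difference of 0.90 percentage points. Let-7g-5p held 2.35, 2.30 and 2.35% in type H ECs and 2.75, 2.73 and 2.75% in type L ECs. Let-7a-5p held 9.69% ± 0.17 in type H and 10.67% ± 0.29 in type L ECs (SD, n = 3). The shares of let-7b-5p, let-7c-5p and let-7d-5p were higher and those of let-7a-5p, let-7g-5p and let-7i-5p lower on every type H array than on any type L array, each with p = 0.1 in the exact two-sided permutation test. Other miRNAs were not counted on this measure. Lack of overlap was common on these arrays: with quantile-normalized values, 45.7% of all miRNAs tested lay above and 42.1% below.

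The shares of let-7e-5p (7.32% ± 0.065 and 7.39% ± 0.038), let-7f-5p (5.40% ± 0.15 and 5.67% ± 0.19) and miR-98-5p (0.24% ± 0.014 and 0.26% ± 0.007) overlapped between type H and type L ECs (SD, n = 3 for each cell type).

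**Figure D4:**
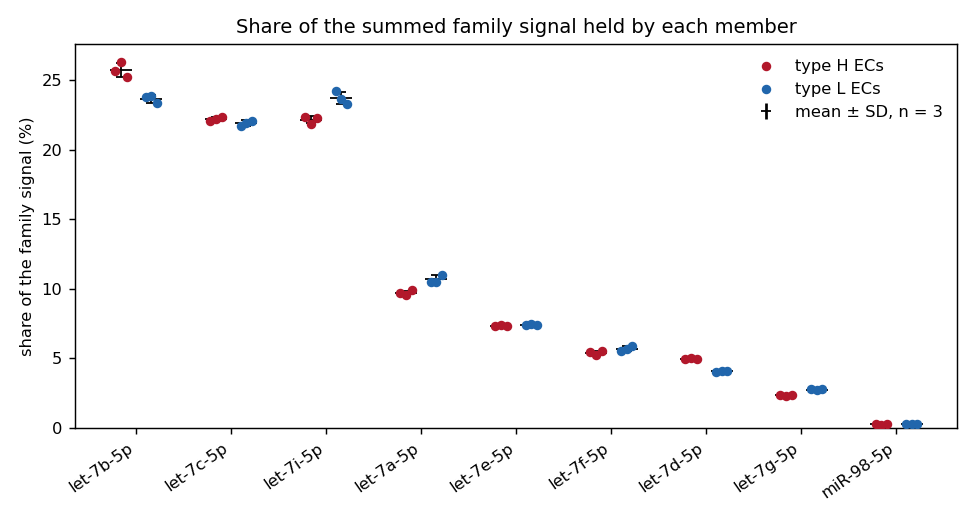
Percent of the summed family signal (y axis, from 0) held by each member (x axis) on each type H and type L array (points), with the mean ± SD as black bars. Let-7b-5p and let-7d-5p lie higher in type H ECs, let-7i-5p, let-7a-5p and let-7g-5p lower, and let-7e-5p is near 7.3% in both.

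Ratios were also compared between members that share a transcript and between members that differ most. The latter, let-7d-5p over let-7g-5p and let-7b-5p over let-7i-5p, pair members that went opposite ways relative to the family mean. That these ratios were apart follows from that choice. The signal of let-7d-5p over that of let-7g-5p was 2.11, 2.17 and 2.09 on the type H arrays and 1.454, 1.496 and 1.474 on the type L arrays. Let-7d-5p over let-7a-5p, which come from the transcript on chromosome 13, was 0.51 ± 0.012 in type H and 0.38 ± 0.011 in type L ECs (SD, n = 3). Neither ratio overlapped between the cell types. For let-7d-5p over let-7a-5p this also follows from values given above. Relative to the family mean, let-7d-5p lay higher and let-7a-5p lower in type H ECs, both without overlap.

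Let-7b-5p over let-7c-5p was 1.16 ± 0.026 in type H and 1.08 ± 0.020 in type L ECs, and let-7f-5p over let-7a-5p was 0.56 ± 0.0075 and 0.53 ± 0.0066. Both ratios were apart between the cell types. MiR-98-5p over let-7f-5p, which share the locus in Huwe1, was 0.044 ± 0.0015 in type H and 0.045 ± 0.0003 in type L ECs and overlapped. Let-7b-5p over let-7i-5p was 1.16 ± 0.037 in type H and 0.997 ± 0.014 in type L ECs. Of the 6 ratios compared, 5 were apart, each with p = 0.1 in the exact two-sided permutation test. That count includes the pairs chosen as differing most and let-7d-5p over let-7a-5p, which had to be apart. Ratios between other miRNAs were not counted this way. Let-7a-5p, let-7c-5p and let-7f-5p can also come from loci outside these clusters.

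The family held a larger share of all detected signal in type H ECs. The summed signal of the 9 members was 6305, 5146 and 4887 on the type H arrays and 4284, 4759 and 4992 on the type L arrays, which overlapped. As a percent of the signal of all detected miRNAs it was 7.92, 7.32 and 7.44% in type H ECs and 5.54, 6.00 and 6.25% in type L ECs, without overlap (p = 0.1 in the exact two-sided permutation test). A single miRNA, miR-6366, held 55.2% ± 1.1 of the detected signal in type H and 59.3% ± 0.72 in type L ECs (SD, n = 3). With that miRNA left out, the family held 16.9% ± 0.30 in type H and 14.6% ± 0.63 in type L ECs, again without overlap.

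The passenger strands, which are the opposite strands of the same precursors, were mostly below detection. Of 12 listed, 11 were on the array and 2 were detected, let-7b-3p and let-7f-1-3p, each on 3 of 3 type H and 0 of 3 type L arrays. Their summed signal on the type H arrays was 9.56 to 11.6. Both strands were dim, with a mean normalized log2 signal of 2.58 and 2.73 in type H and 1.36 and 1.24 in type L ECs. Of the 311 miRNAs tested, 256 passed detection on every type H array and 286 on every type L array. Complete detection in a single cell type was thus not special to these strands. How many other miRNAs had 3 of 3 against 0 of 3 was not counted. Of the other 2 array names that hold the seed in the RefSeq table, let-7k and miR-1961, both were detected on 0 arrays, as was let-7j, whose seed differs.

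Some let-7 loci lie beside miR-99, miR-100 and miR-125 genes in conserved clusters. Of 5 such neighbours tested with quantile-normalized values, 1 was higher in type H ECs and 4 were lower, where 44.7% and 42.1% of all miRNAs were. MiR-99b-5p, beside let-7e, was higher by 0.23 (SE 0.033, limma adjusted p = 0.000973). The lower ones were miR-125b-5p (-0.40), miR-99a-5p (-0.31), miR-100-5p (-0.15) and miR-125a-5p (-0.10). Of the members with a locus in such a cluster, let-7a-5p was higher by 0.31, and let-7c-5p (0.12) and let-7e-5p (0.086) did not pass the threshold.

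The 5 miRNAs whose normalized log2 signal followed the family mean most closely over the 6 arrays, out of 222 other miRNAs detected on all of them, were miR-16-5p, miR-3102-5p.2-5p, miR-320-3p, miR-1904 and miR-30c-5p. Their root mean square difference from the family mean, after each was centred on its own mean, was 0.028 to 0.033. MiR-16-5p differed by 0.21 between the cell types, and its closeness to the family mean follows from how these miRNAs were picked.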

How the data were processed

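The authors extracted spot intensities, probe totals and miRNA totals with Agilent Feature Extraction 10.7.1.1, and the deposited intensities are not normalized between arrays. They also deposited log2 values, quantile-normalized per their methods, whose offset at the floor stays unknown (column medians -3.32 to -3.26). Labelling is described as linear cRNA amplification in the labels and as Cy3 labelling of small RNAs in the methods, and the design number differs between methods and file headers. Here the probe totals of each miRNA were summed. For the 9 members this equalled the deposited total, whereas 74 to 92 detected miRNAs per array differed. Sums were quantile-normalized over 1881 miRNAs, set to at least 1 and log2-transformed, and 311 miRNAs (those detected by every type H array or every type L array) were tested with limma 3.58.1 (R 4.3.3) and Benjamini-Hochberg adjustment at 0.05. Scripts were tested on simulated data. All 9 members were to be named. Members and lists were chosen with earlier results of these data known. The number of arrays, 3 per cell type, limits the precision. Alternatives covered the signal, background correction, scaling, filter, floor, test, array weights, replicate block, probe choice and each array left out. A genome sequence was not used here.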

Additional observations from a re-analysis of the deposited data

How the results depend on the processing

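Of 9 members, 6 passed the threshold in the main comparison, where 86.8% of all miRNAs did. The count was 3 with the miRNA totals as deposited (70.1% of all miRNAs), 3 after scaling on the 75th percentile over all miRNAs (81.4%), 2 without normalization (75.9%), and 5 to 7 with each array left out. In the deposited totals the members' own signals are unchanged, and only other miRNAs, which enter the quantile normalization, differ. The mean log2 difference of the family, 0.21, was 0.11 in the authors' log2 table, 0.089 after scaling on the 75th percentile over detected miRNAs, 0.43 after median centring, 0.10 with the longest probe alone, and 0.16 to 0.23 with each array left out. The excess of the family's share of detected signal in type H ECs was 1.63 percentage points, 0.84 after quantile normalization and 1.44 to 1.79 with each array left out. After centring on the family mean the count of members was 5 in the main setting and 4 to 6 with each array left out. In the main setting, 33.4% of all miRNAs were called higher and 50.5% lower after this centring. Shares of all miRNAs were not counted with an array left out. The methods' t-test gave 6 members, and over all miRNAs 266 at an unadjusted p under 0.05 and 264 after Benjamini-Hochberg adjustment.

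The log2 difference reversed for let-7e-5p with the deposited totals (-0.0093) and the authors' log2 table (-0.070), for let-7a-5p under the 75th percentile over detected miRNAs (-0.025) and the longest probe (-0.16), for let-7g-5p under median centring (0.22), and for let-7i-5p under the 75th percentile over detected miRNAs (0.014) and over all miRNAs (0.12), no normalization (0.11) and median centring (0.36). The difference in share, in percentage points, reversed in the authors' log2 table for let-7c-5p (-0.054), let-7f-5p (0.65) and miR-98-5p (0.071), with the longest probe for let-7e-5p (0.070), and after quantile normalization for let-7a-5p (0.94), let-7c-5p (-0.89), let-7f-5p (0.22) and miR-98-5p (0.049). The cause was not tested. Let-7d-5p and let-7b-5p reversed under none of these.

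With the replicate number as a block, 6 members passed in the main comparison, 4 after centring on the family mean, where let-7b-5p was lost (limma adjusted p = 0.0759), and 262 of 311 miRNAs against 270 without it. Same-numbered arrays showed little shared deviation: their deviations correlated at -0.0055, -0.025 and 0.12 over 231 miRNAs, and 2 of 6 arrays correlated best with their own number. Such correlations cannot show whether the samples were paired when collected. Without type H array 2 or type L array 2, let-7g-5p no longer passed (limma adjusted p = 0.0629 and 0.0566). Without type L array 1, let-7c-5p did (limma adjusted p = 0.0315), with values tied within each cell type. The variance within cell types was 0 for 1169 of 1881 miRNAs with no filter, 100 of 311 with a floor of 8 and 4 of 311 in the main setting; with no filter limma warned that its moderated test is unreliable. Setting undetected miRNAs to 0.1 was chosen after seeing the data and gave 6 members, where 85.5% of all miRNAs passed.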
